A study of Mus musculus with 8 samples.

Results

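The genes described here encode the lipases that release fatty acids from stored triglyceride and the proteins that coat the lipid droplet. They were chosen by name, as the rows of the expression table for Pnpla2, Lipe, Mgll, Abhd5, G0s2, Plin1, Plin2, Plin4, Plin5 and Cidec, and all 10 were found among 49452 genes. The table holds RNA-Seq values from the brown adipose tissue (BAT) of C57BL/6 males, and the study asked which transcripts correlate with BAT function. There were 8 libraries in 4 groups of 2. Mice aged 10 to 12 weeks were kept at 22 °C (replicates 4 and 7) or were held at 4 °C for 24 h (replicates 2 and 11), the last 4 h of it fasted. Mice aged 32 weeks had eaten either the control food, called NCD here (replicates 6 and 8), or a high-fat diet, HFD (replicates 2 and 6), for 28 weeks. The labels call the control food normal chow while the study's methods give a control diet matched in micronutrients, and which was fed is not settled here. Whether the 22 °C group was fasted as well is not stated clearly. No mouse carried a transgene or deletion in these groups. Nothing says whether tissue of several animals was pooled, so p-values measure only the spread between these libraries.

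As background, triglyceride is broken down in steps. Adipose triglyceride lipase (ATGL, gene Pnpla2) takes off the first fatty acid, hormone-sensitive lipase (HSL, gene Lipe) works on the diglyceride, and monoglyceride lipase (gene Mgll) frees the last fatty acid and glycerol. ABHD5, also called CGI-58, activates ATGL, and G0S2 inhibits it. Perilipins coat the droplet and govern access to it, and CIDEC, also called FSP27, fuses small droplets into large ones. In brown adipocytes noradrenaline starts this breakdown in the cold, and the fatty acids both fuel and activate the uncoupling protein UCP1.

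Values are FPKM, fragment counts scaled by transcript length and by the size of the library, so that genes of different length can be compared, and positions are those of GRCm38. In each sentence the libraries of a group are given in the order of the replicate numbers above. Each group holds 1 library with over 100 FPKM of Gm10800, a gene made of satellite repeats, and 1 with at most 4.13 FPKM. The former are called satellite-high here (replicate 4 of 22 °C, 11 of 4 °C, 8 of NCD and 2 of HFD) and the latter satellite-low. The satellite-high libraries were unlike in degree, with 447 FPKM of Gm10800 at 4 °C and 6464 to 15726 in the other groups. The 4 °C one had 26285 genes above 0 and the others 31741 to 32686. Members tended to be higher in the satellite-low library of their group, in 7 of 10 at 22 °C, 10 of 10 at 4 °C, 9 of 10 under NCD and 9 of 10 under HFD. Over 10883 autosomal genes whose mean reached 1 FPKM that share was 57.4%, 78.6%, 75.1% and 80.0%. A prefix in the library names set NCD replicate 6 apart from the other libraries of the diet groups and joined it to the cold comparison's libraries. The same library and both 22 °C libraries list every X- and Y-linked gene at 0 and at most 1 mitochondrial gene above 0, whereas the other 5 libraries have 779 to 1175 X-linked and 15 mitochondrial genes above 0. The deposited values of the 22 °C and 4 °C groups thus differ in this respect too, which cannot be told apart from the cold. All 10 members are autosomal. The brown fat markers (8 of 8 found, none at 0) were present throughout, with Ucp1 between 699 and 6462 FPKM. They summed to 2735 and 3748 FPKM at 22 °C and 9989 and 8299 at 4 °C. Under NCD the sum was 8532 and 4973 FPKM and under HFD 4211 and 6481. In the cold 6 were higher and 1 lower without overlap, beside 37.9% and 20.6% of all genes. The lower one was Prdm16, with 4.54 and 8.03 FPKM at 22 °C and 3.12 and 3.72 at 4 °C. Of 5 general adipocyte markers 3 were higher and 2 (Adipoq and Cebpa) lower. White adipocyte markers (6 of 6 found) summed to 106 and 60.1 FPKM at 22 °C, 253 and 124 at 4 °C, 19.1 and 12.2 under NCD and 82.0 and 108 under HFD. Of these Hoxc9 and Tcf21 were at or near 0 (at most 0.0621 FPKM). Retn made up most of the sum in the cold set, with 87.8 and 50.2 FPKM at 22 °C and 231 and 112 at 4 °C. Lep went the other way in the cold, with 7.39 and 3.72 FPKM at 22 °C and 0.769 and 0.175 at 4 °C. In all, 3 white adipocyte markers were higher and 1 lower in the cold without overlap. Under HFD Lep had 61.7 and 83.5 FPKM against 2.93 and 0.307 under NCD. Skeletal muscle markers (11 of 12 found, none at 0) summed to 569 and 117 FPKM at 22 °C, 4561 and 1981 at 4 °C, 576 and 1525 under NCD and 185 and 15.5 under HFD. Macrophage markers (8 of 8 found, none at 0) summed to 94.4 and 68.4 FPKM at 22 °C, 156 and 75.9 at 4 °C, 137 and 51.9 under NCD and 282 and 318 under HFD.

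The members were among the most abundant transcripts of the tissue. Their mean over the 8 libraries ran from 518 FPKM for Cidec to 42.3 FPKM for Abhd5, and the median rank among all autosomal protein-coding genes ran from 52.5 for Cidec to 803.5 for Abhd5. After Cidec came Plin2 (458 FPKM), Plin1 (365), Lipe (286), Pnpla2 (271), G0s2 (203), Mgll (166), Plin4 (123), Plin5 (91.2) and Abhd5. Some steps of this order held in all 8 libraries, namely Plin1 above Lipe and Plin5 above Abhd5. Others did not exceed the spread, since Lipe was above Pnpla2 in only 4 of 8 libraries, and Cidec above Plin2, Pnpla2 above G0s2, and G0s2 above Mgll in 5 of 8 each. Plin2 had the widest range, 5.62-fold from its lowest to its highest library, and Abhd5 the narrowest, 1.82-fold. From the FPKM step that 1 fragment makes, the members rested on about 7716 to 139286 fragments per library, so counting error is small beside the spread between libraries.

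**Figure D1:**
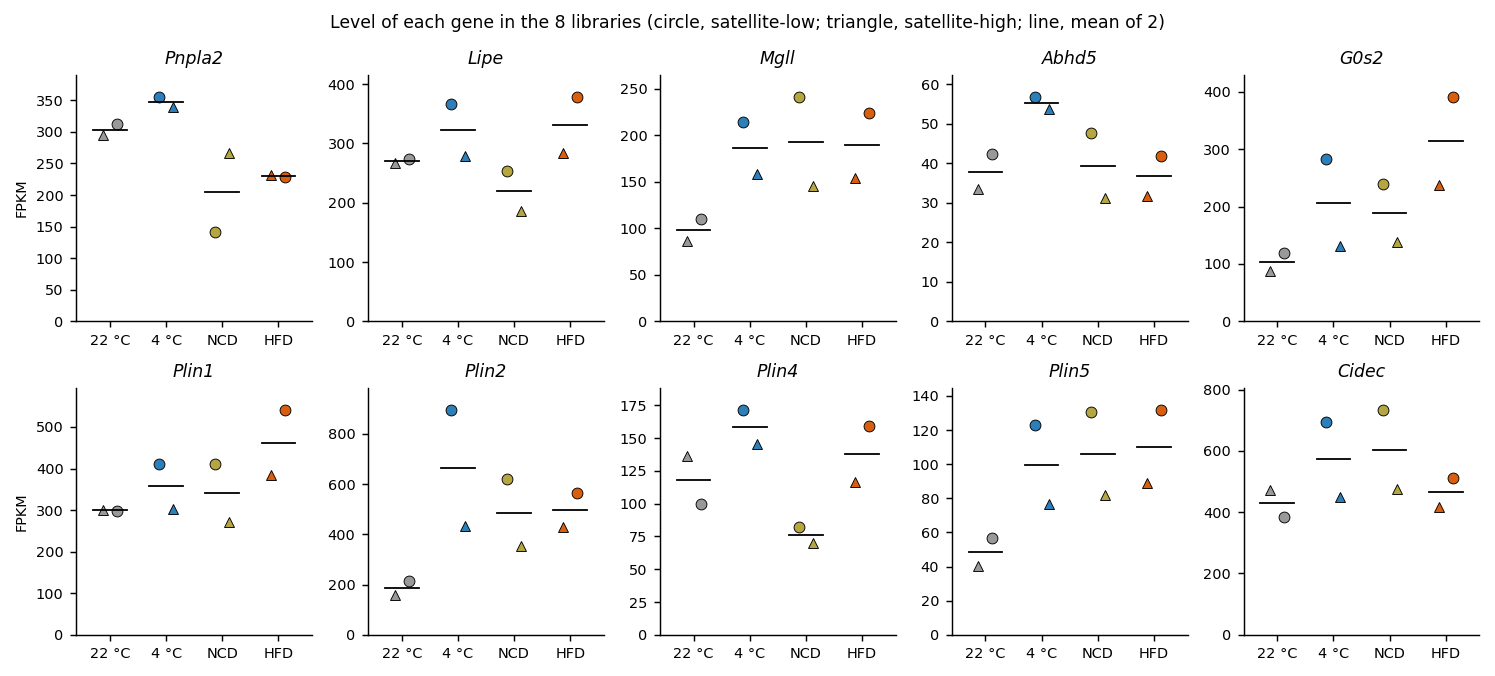
FPKM of the 10 genes (vertical axes, each from 0) in the 8 libraries by group, with circles for satellite-low and triangles for satellite-high libraries and a line at the mean of the 2 libraries. Plin2, Plin5 and Mgll had both 22 °C libraries below the other 6 libraries, and Plin4 had its lowest values under NCD.

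The first comparison asked how these mRNAs stood after 24 h at 4 °C. The droplet coat genes Plin2 and Plin5, the lipase gene Mgll and the inhibitor gene G0s2 had 1.90 to 3.57 times the mean FPKM of the 22 °C group, whereas Pnpla2, Lipe and Plin1 stood within 1.2 times of it. None of the 10 passed the threshold in limma (adjusted p under 0.05 by Benjamini-Hochberg over 17477 genes and a log2 fold change of at least 1), where 1.44% of all genes did. With unadjusted p under 0.05 there were 3 (Plin2, Mgll and Plin5), against 24.5% of all genes. In 9 of 10, Cidec being the exception, both 4 °C libraries were above both 22 °C libraries, and in 0 of 10 both were below. Of all genes tested 37.9% were higher and 20.6% lower in that sense.

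These directions depend on how the libraries are scaled. The members had a median log2 fold change of 0.49, beside 0.07 over all genes tested and 0.20 over genes whose mean reached 1 FPKM. With each library centred on the median of autosomal genes at 1 FPKM or more, the members' median was 0.23 and 5 of 10 did not overlap, all higher (Mgll, Abhd5, G0s2, Plin2 and Plin5; 19.8% of all genes were higher and 47.6% lower). After quantile normalization 3 were higher (Mgll, Plin2 and Plin5) and 3 lower (Pnpla2, Lipe and Plin1), where 26.0% and 32.5% of all genes were. After rescaling to the same autosomal sum 4 were higher (Mgll, G0s2, Plin2 and Plin5) and 0 lower, beside 13.2% and 26.6%. Plin2, Plin5 and Mgll were thus higher in both 4 °C libraries under each of these 4 scalings. The sign of Pnpla2, Lipe and Plin1 turned with all 3 rescalings, that of Cidec with 2 (quantile and autosomal sum), and that of Plin4 with quantile normalization.

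**Figure D2:**
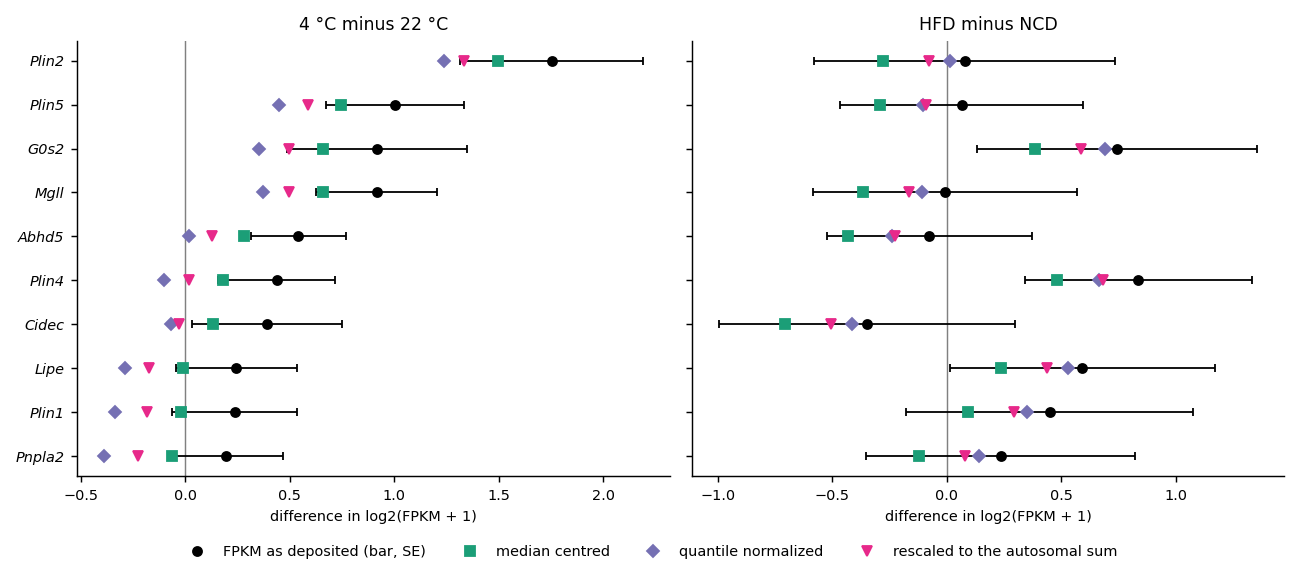
Difference in log2(FPKM + 1) of each gene, 4 °C minus 22 °C on the left and HFD minus NCD on the right, for the values as deposited (black, bar of 1 SE) and for 3 rescalings. On the left Plin2 stayed above 1 under each scaling, between 1.24 and 1.75, while Pnpla2, Lipe and Plin1 were below 0 under all 3 rescalings.

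Plin2 (ENSMUSG00000028494, chromosome 4, 86648386 to 86670060, minus strand), also called ADRP, coats small droplets in many cell types. It measured 159 and 213 FPKM in the 22 °C libraries and 894 and 433 in the 4 °C libraries, or 186 ± 38.0 and 663 ± 326 (SD, n = 2 each). The cold libraries lay well above the 22 °C libraries but differed from each other by more than those did. The log2 difference of 1.75 (SE 0.44, adjusted p 0.0945, limma) did not pass, and over 16 alternatives the adjusted p ran from 0.0293 to 0.363 with higher values in the cold in every one. It passed after median centring (adjusted p 0.0460, limma; 4.33% of all genes passed), with library type, satellite-high or satellite-low, as a covariate (0.0293; 4.92%) and when the same covariate joined a fit of all 8 libraries (0.0297; 4.97%). Its difference was 1.44 between the satellite-high and 2.07 between the satellite-low libraries, and 1.23 without 4 °C replicate 2. Muscle cells and macrophages also express Plin2. The summed muscle markers were higher in both cold libraries and the summed macrophage markers overlapped between the groups, and their part in the Plin2 difference was not tested.

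Plin5 (ENSMUSG00000011305, chromosome 17, 56111601 to 56117596, minus strand) is the perilipin of oxidative tissues and binds ATGL and ABHD5. It measured 40.4 and 57.0 FPKM in the 22 °C libraries and 123 and 76.8 in the 4 °C libraries, with no overlap. The fitted log2 difference was 1.001 (SE 0.33, adjusted p 0.152, limma). It passed only with library type as a covariate (adjusted p 0.0486, limma) and with that covariate in the fit of all 8 libraries (0.0336), with a range of 0.0336 to 0.748 over the alternatives. Within library types its difference was 0.91 (satellite-high) and 1.09 (satellite-low), but it was 0.45 after quantile normalization, 0.59 with equal autosomal sums and 0.67 without 4 °C replicate 2. Muscle also expresses Plin5, and the part of the muscle signal in its difference was not tested.

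Mgll (ENSMUSG00000033174, chromosome 6, 88724412 to 88828360, plus strand) measured 85.9 and 109 FPKM in the 22 °C libraries and 214 and 158 in the 4 °C libraries. The fitted log2 difference was 0.92 (SE 0.29, adjusted p 0.141, limma; 0.0669 to 0.833 over the alternatives, none past threshold). The libraries did not overlap, and the difference was close to the same in satellite-high (0.87) and satellite-low libraries (0.96). It was 0.37 after quantile normalization and 0.50 with equal autosomal sums. Mgll overlaps the antisense gene Gm26588 and 4 genes of the annotation's TEC class, of which 3 lie on its own strand, so reads there may be split or shared.

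G0s2 (ENSMUSG00000009633, chromosome 1, 193272161 to 193273217, minus strand) measured 87.1 and 118 FPKM in the 22 °C libraries and 282 and 131 in the 4 °C libraries. Its cold mean was 2.01 times the 22 °C mean, and without 4 °C replicate 2 the log2 difference was 0.37 in place of 0.92. With an SE of 0.43 and an adjusted p of 0.261 (limma) it was not past threshold, and it did not pass in any alternative. G0s2 overlaps Lamb3 on the opposite strand, and no source used here says if strand entered the counting.

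Of the remaining genes of the cascade, Pnpla2 and Lipe stood close to their 22 °C level, while Abhd5 had 1.46 times the 22 °C mean. Pnpla2 (ENSMUSG00000025509, chromosome 7, 141455198 to 141460743, plus strand) measured 294 and 312 FPKM in the 22 °C libraries and 355 and 339 in the 4 °C libraries, and Lipe (ENSMUSG00000003123, chromosome 7, 25379527 to 25398710, minus strand) 267 and 273 against 367 and 279. Their log2 fold changes were 0.20 (SE 0.27, adjusted p 0.699, limma) and 0.24 (SE 0.29, adjusted p 0.647), each smaller than its error. Abhd5 (ENSMUSG00000032540, chromosome 9, 122351608 to 122381524, plus strand), the activator, had 33.4 and 42.4 FPKM against 56.8 and 53.7, a log2 difference of 0.54 (SE 0.23, adjusted p 0.222, limma) that was 0.02 after quantile normalization and 0.13 with equal autosomal sums. Without 4 °C replicate 2 the Lipe difference was 0.05. Lipe and Abhd5 each overlap an antisense gene.

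The coat genes Plin1 (ENSMUSG00000030546, chromosome 7, 79720218 to 79732903, minus strand), the main perilipin of adipocytes, Plin4 and Cidec showed smaller differences. Plin1 measured 301 and 298 FPKM in the 22 °C libraries and 410 and 304 in the 4 °C libraries (log2 fold change 0.24, SE 0.30, adjusted p 0.669, limma). Plin4 (ENSMUSG00000002831, chromosome 17, 56100591 to 56109803, minus strand) had 136 and 99.7 against 171 and 146 (0.44, SE 0.28, adjusted p 0.387), and it overlaps Hdgfl2 on the opposite strand. Cidec (ENSMUSG00000030278, chromosome 6, 113424634 to 113435760, minus strand) had 472 and 386 against 695 and 451, where the groups overlapped (0.39, SE 0.36, adjusted p 0.541). Leaving out 1 library gave 0.02 to 0.45 for Plin1, 0.21 to 0.66 for Plin4 and 0.08 to 0.70 for Cidec, with the lowest value without 4 °C replicate 2 for Plin1 and Cidec and without 22 °C replicate 7 for Plin4.

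Ratios of 2 genes of the same library do not move when all values of that library are multiplied by 1 factor. Quantile normalization is not of that kind and can move them. The Plin2 to Plin1 ratio was 0.528 and 0.714 at 22 °C against 2.18 and 1.43 at 4 °C, so Plin1 was the more abundant mRNA in both 22 °C libraries and Plin2 in both cold libraries. On the log2 scale the difference was 1.52, beside a pooled SD of 0.37 between libraries, and it was 1.43 within satellite-high and 1.61 within satellite-low libraries. The Plin5 to Plin1 ratio went from 0.134 and 0.191 to 0.299 and 0.253, and the Mgll to Pnpla2 ratio from 0.292 and 0.351 to 0.602 and 0.466. The Abhd5 to Pnpla2 ratio was 0.113 and 0.136 against 0.160 and 0.158. The G0s2 to Pnpla2 ratio was 0.296 and 0.379 against 0.795 and 0.386, so that 4 °C replicate 11 hardly exceeded the 22 °C libraries. Lipe and Plin1 relative to Pnpla2, Plin4 and Cidec relative to Plin1, Plin5 relative to Plin4, and Cidec relative to its relative Cidea overlapped between the groups. With 2 libraries against 2 the smallest two-sided exact permutation p is 0.333, so no ratio was tested further.

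**Figure D3:**
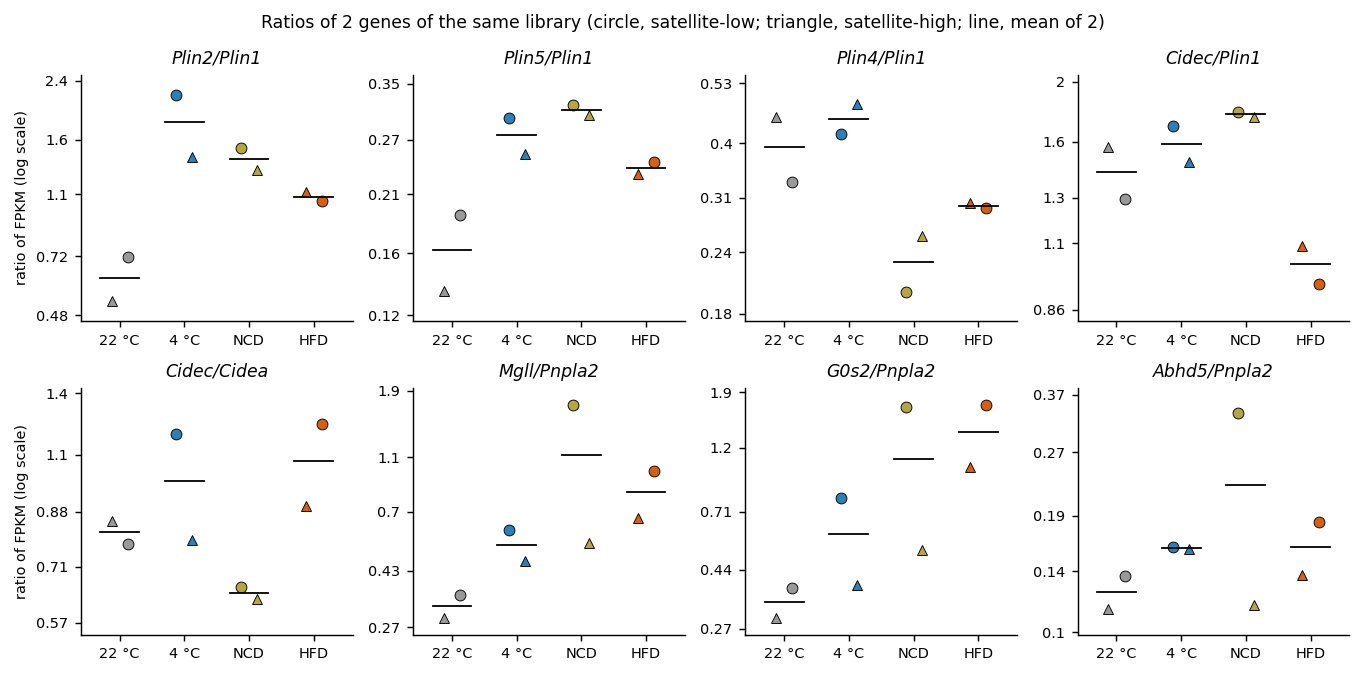
Ratio of the FPKM of 2 genes in each library (vertical axes, log scale) for 8 pairs by group, with circles for satellite-low and triangles for satellite-high libraries and a line at the mean of the 2 libraries. Plin2 to Plin1 separated the cold from the 22 °C libraries, and Cidec to Plin1 separated the HFD libraries, at 1.09 and 0.947, from the other 6, which were between 1.29 and 1.78.

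The make-up of the perilipin mRNAs restates the same FPKM as parts of a whole, so a higher Plin2 alone lowers the other shares. Plin1 itself was not lower in the cold, with 301 and 298 FPKM at 22 °C and 410 and 304 at 4 °C. Of the summed FPKM of Plin1 to Plin5, which was 662 and 695 at 22 °C and 1662 and 987 at 4 °C, Plin1 took 45.5% and 42.9% at 22 °C against 24.7% and 30.8% in the cold. Plin2 took 24.0% and 30.6% against 53.8% and 43.9%. Neither share overlapped between the groups, and leaving out any 1 library left a Plin2 difference of 16.6 to 26.5 percentage points. The share of Plin5 was close to level (7.15% ± 1.49 and 7.58% ± 0.278, SD, n = 2 each).

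**Figure D4:**
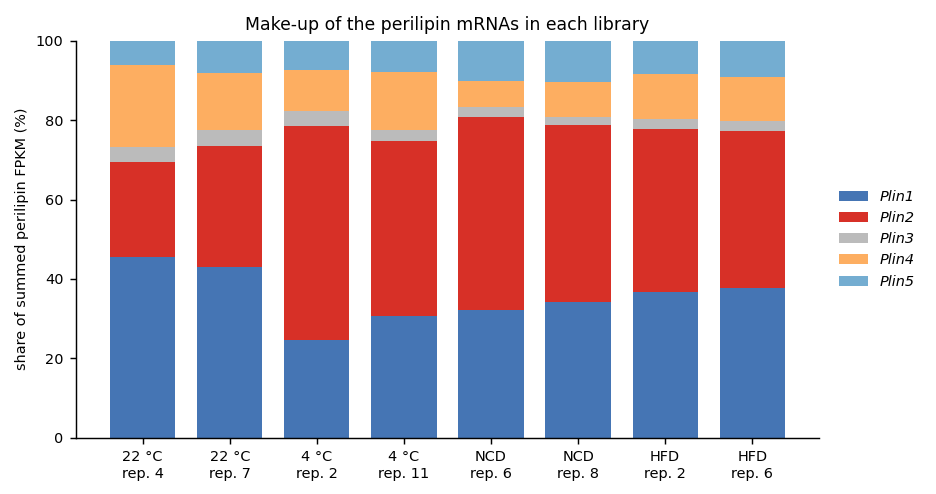
Share of each perilipin gene in the summed FPKM of Plin1 to Plin5 (vertical axis, percent) in each of the 8 libraries. Plin1 was the largest share in both 22 °C libraries, with 45.5% and 42.9%, and Plin2 in each of the other 6, with 39.5% to 53.8%.

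Plin2, Plin5 and Mgll also moved together across all 8 libraries. On log2(FPKM + 1) Pearson's r was 0.989 between Mgll and Plin5, 0.950 between Mgll and Plin2 and 0.946 between Plin2 and Plin5. G0s2 had an r of 0.921 with Plin5, 0.920 with Plin1, 0.883 with Mgll and 0.848 with Plin2. These are descriptions over 8 libraries that share their scaling. Genes outside the members reached such values too, for example Hist1h2bc with Mgll (0.989) and Psmc5 with Plin2 (0.989). Pnpla2 had an r of −0.47 with Mgll and −0.46 with Plin5, which was −0.14 and −0.23 without NCD replicate 6. Plin4 and Plin5 are neighbours on chromosome 17, 1797 bases apart on the same strand, and their r was 0.08, or 0.32 without NCD replicate 6. Each member was also compared with 10879 autosomal genes, a set slightly smaller than the 10883 used for library type. The gene most like a member was Srxn1 for Plin2 (r 0.991), Dhx29 for Plin1 (0.998), Slc39a13 for Lipe (0.988) and Igf1r for Pnpla2 (0.984). It was Mcrip2 for Abhd5 (0.990), Sult1a1 for Plin4 (0.989), Tmem110 for G0s2 (0.983) and Mterf4 for Cidec (0.956), while Mgll and Plin5 were most like each other.

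The promoters of these 4 genes are shown because they had the largest differences in the cold. Each window runs from 250 bases before to 50 after the most upstream RefSeq start in the table (build GRCm38.p6), 5′ to 3′ on the gene's strand, with the letters found in the search below in capitals. The windows are chr4:86670010-86670309 (minus strand) for Plin2, chr17:56117499-56117798 (minus) for Plin5, chr6:88724162-88724461 (plus) for Mgll and chr1:193273139-193273438 (minus) for G0s2.
Plin2: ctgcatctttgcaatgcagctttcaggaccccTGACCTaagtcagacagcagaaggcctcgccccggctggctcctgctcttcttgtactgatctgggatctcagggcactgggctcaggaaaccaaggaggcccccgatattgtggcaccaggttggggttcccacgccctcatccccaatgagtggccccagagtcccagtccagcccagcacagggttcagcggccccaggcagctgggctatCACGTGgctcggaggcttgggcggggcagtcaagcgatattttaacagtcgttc
Plin5: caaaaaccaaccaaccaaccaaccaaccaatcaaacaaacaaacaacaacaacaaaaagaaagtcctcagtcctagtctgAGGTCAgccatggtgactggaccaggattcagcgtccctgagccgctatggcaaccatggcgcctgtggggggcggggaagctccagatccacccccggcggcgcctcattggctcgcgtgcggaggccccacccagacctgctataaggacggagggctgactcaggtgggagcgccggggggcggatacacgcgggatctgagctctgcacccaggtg
Mgll: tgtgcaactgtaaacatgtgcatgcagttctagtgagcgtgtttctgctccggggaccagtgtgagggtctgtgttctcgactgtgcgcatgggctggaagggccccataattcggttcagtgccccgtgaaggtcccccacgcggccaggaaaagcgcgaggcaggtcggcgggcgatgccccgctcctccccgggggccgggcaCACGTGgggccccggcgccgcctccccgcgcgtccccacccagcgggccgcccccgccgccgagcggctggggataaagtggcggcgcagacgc
G0s2: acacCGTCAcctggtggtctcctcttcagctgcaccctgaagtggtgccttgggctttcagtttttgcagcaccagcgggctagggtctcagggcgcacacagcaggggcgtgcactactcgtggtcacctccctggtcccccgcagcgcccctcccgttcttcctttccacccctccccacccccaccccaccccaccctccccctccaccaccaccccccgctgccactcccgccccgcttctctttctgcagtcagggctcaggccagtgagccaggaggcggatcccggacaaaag

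Both strands of the windows of all 10 members were searched for the preferred letters of several known factors and for the TATA box. AGGTCA, the hexamer of nuclear receptors such as the PPARs, was in the windows of Plin2 (opposite strand, from 218 bases before the start), Plin5 (same strand, from 170 bases before) and Abhd5, which is 3 of 10, while 16.3% of 32851 promoter windows of the same length held it. CACGTG, the E-box, was in those of Plin2, Mgll and Lipe, 3 of 10 beside 7.15%. TGACG, the core of the cAMP response element, was in those of G0s2 and Abhd5, 2 of 10 beside 20.8%. These counts take 1 window per member, and the second start that the table lists for Lipe, Mgll, Plin5 and Cidec was left out of them. Of those windows that of Mgll holds TGACG, and that of Plin5 AGGTCA. The full element TGACGTCA (1.79% of windows), the direct repeat of such hexamers with 1 base between, as PPAR and RXR bind it (0.381%), and TATAAA (13.6%) were in none. Plin2 and Plin5 share only the AGGTCA hexamer, and Plin2 and Mgll only the E-box. A match describes letters in a window and is not evidence of a bound factor.

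The second comparison asked how the same mRNAs stood after 28 weeks of HFD. Plin4 and Lipe were higher in both HFD libraries than in both NCD libraries, at 1.81 and 1.51 times the NCD mean, and the other 8 members overlapped between the groups. None passed the threshold in limma over 17543 genes, where 0.0684% of all genes did, and none had an unadjusted p under 0.05, where 14.4% of all genes did. With library type as a covariate 4.25% of all genes passed and again no member. Of all genes tested 39.9% were higher and 5.80% lower in both HFD libraries, beside 2 and 0 of the 10 members. The difference between members and all genes was not tested, and both counts depend on the scaling, as given below.

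Plin4, which coats nascent droplets in adipocytes, had 82.0 and 70.1 FPKM under NCD against 116 and 159 under HFD. It was 76.1 ± 8.44 and 138 ± 30.4 (SD, n = 2 each). The fitted log2 difference was 0.84 (SE 0.50, adjusted p 0.497, limma), and with library type as a covariate the adjusted p was 0.0376 but the change stayed under 1. Its difference was 0.72 within satellite-high and 0.95 within satellite-low libraries, and 0.48 after median centring.

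Lipe had 253 and 186 FPKM under NCD against 284 and 378 under HFD. The log2 difference of 0.59 had an SE of 0.58 (adjusted p 0.691, limma), and it was 0.24 after median centring. G0s2 had 239 and 138 FPKM against 238 and 391, a log2 difference of 0.74 (SE 0.61, adjusted p 0.626) with overlapping groups. Plin1 had 411 and 271 against 385 and 540 (0.45, SE 0.63, adjusted p 0.786). For each of these 3 the satellite-high libraries and the satellite-low libraries gave a difference of similar size, 0.61 and 0.58 for Lipe, 0.78 and 0.71 for G0s2 and 0.51 and 0.40 for Plin1. They moved with the library left out, however, to 0.37 to 0.81 for Lipe, 0.35 to 1.14 for G0s2 and 0.15 to 0.75 for Plin1, in each case lowest without NCD replicate 8 and highest without NCD replicate 6.

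Cidec was the member with the lowest HFD level relative to NCD. It had 733 and 475 FPKM under NCD against 418 and 512 under HFD, a log2 difference of −0.35 (SE 0.65, adjusted p 0.846, limma) that was −0.04 without NCD replicate 6 and −0.66 without NCD replicate 8. Plin2 (620 and 352 against 430 and 566), Plin5 (130 and 81.9 against 88.9 and 132), Mgll (241 and 145 against 154 and 224) and Abhd5 (47.6 and 31.1 against 31.7 and 41.9) had means within 1.1 times of each other. Their log2 fold changes were between −0.08 and 0.08 with SEs of 0.45 to 0.66, each difference smaller than its error, and each changed sign with the library left out (−0.37 to 0.49).

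Pnpla2 had 142 and 267 FPKM under NCD against 231 and 228 under HFD, with both HFD libraries inside the NCD range. The NCD libraries were far apart, and the direction turned with the one left out. Without NCD replicate 6 the log2 fold change was −0.22, and without NCD replicate 8 it was 0.69, beside 0.24 (SE 0.59, adjusted p 0.888, limma) with all 4. NCD replicate 6 is also the library whose name prefix differs. It held the higher NCD value in the other 9 of 10 members.

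Scaling set the level of these differences too. The members' median log2 fold change was 0.16, beside 0.18 over all genes tested and 0.29 over genes whose mean reached 1 FPKM, and after median centring it was −0.20. After centring 2 members were higher (Lipe and Plin4) and 3 lower (Mgll, Abhd5 and Cidec) without overlap, where 11.2% and 28.6% of all genes were. Quantile normalization gave 4 higher (Lipe, G0s2, Plin1 and Plin4) and 4 lower (Mgll, Abhd5, Plin5 and Cidec), beside 21.5% and 20.1%. The autosomal sum gave the same 8 genes in the same directions, beside 33.0% and 10.98%. Lipe and Plin4 were higher under each of the 4 scalings. All 8 macrophage markers and 0 muscle markers were higher in both HFD libraries, and 10 of 11 muscle markers were lower. Of the 6 white adipocyte markers 3 were higher in both HFD libraries and 0 lower. What part these cells have in the members' values was not tested, and in bulk tissue fewer cells of a type and less RNA per cell cannot be told apart.

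The ratios of gene pairs within a library, many of which share Plin1 or Pnpla2, were compared between the diet groups as well. The Cidec to Plin1 ratio was 1.78 and 1.76 under NCD against 1.09 and 0.947 under HFD, a log2 difference of −0.80 beside a pooled SD of 0.10. It was −0.69 within satellite-high and −0.91 within satellite-low libraries. The Plin5 to Plin1 ratio went from 0.318 and 0.303 to 0.231 and 0.244, a log2 difference of −0.39 beside a pooled SD of 0.05. Relative to Plin1, therefore, Cidec and Plin5 mRNA were lower in both HFD libraries. Plin2 to Plin1 was likewise lower (1.51 and 1.30 against 1.12 and 1.05) and Plin4 to Plin1 higher (0.1998 and 0.259 against 0.303 and 0.295). The Plin5 to Plin4 ratio was 1.59 and 1.17 under NCD and below 1 in both HFD libraries, at 0.764 and 0.826. Cidec to Cidea was 0.657 and 0.625 against 0.901 and 1.24, and Cidea, the CIDE protein of brown adipocytes, itself had 1116 and 760 FPKM under NCD and 464 and 412 under HFD. All 5 ratios to Pnpla2 overlapped.

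The shares of Plin1, Plin2, Plin4 and Plin5 in the perilipin sum, which restate the same FPKM, did not overlap between the diet groups. Plin1 took 32.1% and 34.2% of the perilipin FPKM under NCD against 36.8% and 37.7% under HFD, and Plin2 48.6% and 44.5% against 41.1% and 39.5%. Plin4 took 6.42% and 8.85% against 11.1% and 11.1%, and Plin5 10.2% and 10.3% against 8.50% and 9.19%.

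The difference between the cold and the diet comparison was tested as a contrast over all 8 libraries, of which none entered both comparisons. None of the 10 passed in limma and none had an unadjusted p under 0.05, while 1.04% of 18902 genes passed and 18.4% had such a p. The contrast was largest for Plin2 (1.67, SE 0.77, adjusted p 0.305, limma), then Plin5 (0.94, SE 0.59, adjusted p 0.459) and Mgll (0.92, SE 0.59, adjusted p 0.469), which ran from 1.152 to 2.196, 0.60 to 1.27 and 0.56 to 1.29 when 1 library was left out. Pnpla2, Plin1 and G0s2 had contrasts between −0.21 and 0.17 whose sign turned when a library was left out. For the Plin2 to Plin1 ratio the cold difference was 1.52 and the HFD difference −0.37, without a test. Side by side, the means under NCD, at 4 °C and at 22 °C were 193, 186 and 97.7 FPKM for Mgll, 486, 663 and 186 for Plin2, and 106, 99.8 and 48.7 for Plin5. The NCD libraries of these 3 genes were thus all above the 22 °C libraries. The 2 sets of mice differ in age, and it is not settled here whether they also differ in food and fasting, so these cannot be told apart.

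Other genes of the pathway were counted in 4 lists. Of 9 further lipases, cofactors and inhibitors tested (Faah was below the filter), 0 passed in either comparison, with an unadjusted p under 0.05 in 4 in the cold and 0 under HFD (limma). Of all genes 1.44% and 0.0684% passed, and 24.5% and 14.4% had such a p. In the cold 4 were higher and 3 lower without overlap, where 37.9% and 20.6% of all genes were, and under HFD 3 were higher and 1 lower, beside 39.9% and 5.80%. Pnpla3, a relative of ATGL, measured 14.7 and 27.0 FPKM in the 22 °C libraries and 7.98 and 5.99 in the 4 °C libraries (log2 fold change −1.40, SE 0.33, adjusted p 0.0851, limma). With library type as a covariate it passed (adjusted p 0.0282, limma), as it did after each of the 3 rescalings. In the deposited values it was thus below the 22 °C level and the 9 members without overlap above it, whereas Pnpla2, Lipe and Plin1 were below that level under the rescalings.

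Of 12 further coat and droplet assembly genes, 0 passed in either comparison (limma; 3 in the cold and 1 under HFD had an unadjusted p under 0.05, against the same shares of all genes as for the lipases), 8 were higher and 1 lower without overlap in the cold, beside 37.9% and 20.6% of all genes, and 3 were higher and 2 lower under HFD, beside 39.9% and 5.80%. With library type as a covariate 1 passed in the cold (Fitm1) and 2 under HFD (Fitm1 and Cidea), where 4.92% and 4.25% of all genes did. The adjusted p of Cidea was 0.0483 there (limma), but 0.135 with that covariate in the fit of all 8 libraries. Fitm1, which helps to form droplets and is known mainly from muscle, measured 1.38 and 0.326 FPKM in the 22 °C libraries and 9.84 and 4.83 in the 4 °C libraries, and 1.74 and 3.95 under NCD against 0.391 and 0.0540 under HFD. Its log2 differences were 2.16 in the cold (adjusted p 0.0622, limma; 0.0391 with the covariate) and −1.61 under HFD (0.141 and 0.00422). The contrast of its cold and diet changes was past threshold (3.77, SE 0.61, adjusted p 0.0432, limma). That call was lost without any 1 of 6 of the 8 libraries, being kept only without 4 °C replicate 11 or NCD replicate 6. Such fits leave 1 library in a group, so a lost call says little, and the contrast stayed at 3.32 to 4.22 in them. Fitm1 moved with the muscle markers, whose part was not tested.

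Of 12 genes of hormonal control, 1 rose and 1 fell past threshold in the cold, where 1.44% of all genes passed, and 0 passed under HFD (0.0684% of all genes). An unadjusted p under 0.05 (limma) was found for 4 in the cold and 0 under HFD, beside 24.5% and 14.4% of all genes. In the cold 4 were higher and 4 lower without overlap, beside 37.9% and 20.6%, and under HFD 3 were higher and 0 lower, beside 39.9% and 5.80%. Pde4d, which breaks down cAMP, measured 25.8 and 26.8 FPKM in the 22 °C libraries and 76.9 and 68.9 in the 4 °C libraries and was 1.43 higher in log2 terms (SE 0.21, adjusted p 0.0467, limma). That call was lost after quantile normalization or rescaling to the autosomal sum. It was also lost without any 1 of the 4 libraries, in fits that leave 1 library in a group and can say little on a call. The Pde4d difference itself stayed at 1.35 to 1.51 in them. Hcar1, a receptor whose ligand lactate restrains lipolysis, had 11.2 and 12.3 FPKM at 22 °C and 0.748 and 0.435 at 4 °C. It had 1.02 and 0.426 FPKM under NCD and 1.23 and 1.72 under HFD. The 22 °C libraries thus stood above all others, NCD included, which were low and near the added 1. Whether the cold or another trait of the 22 °C group set them apart was not tested. The log2 difference of Hcar1 in the cold was −3.01 (SE 0.19, adjusted p 0.0182, limma). The contrast of Hcar1 with the diet was past threshold too (adjusted p 0.0105, limma). The cold call was lost without 4 °C replicate 2 or 11, and that of the contrast without 22 °C replicate 4 or HFD replicate 2. These fits leave 1 library in a group, so a lost call says little about the gene. The Hcar1 difference itself stayed at −3.15 to −2.87 in the cold and −3.80 to −3.30 for the contrast when 1 library was left out. Adrb1 (3.27 and 3.89 against 1.18 and 1.28 FPKM, adjusted p 0.0527) and Prkar1a (14.4 and 20.3 against 60.7 and 23.6, adjusted p 0.225) did not overlap in the cold but did not pass. Adrb1, a receptor for noradrenaline, passed with library type as a covariate (adjusted p 0.0448, limma; log2 −1.04) and after each of the 3 rescalings.

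Of 9 genes for uptake, export and binding of the products tested (Aqp3 was below the filter), 1 rose past threshold in the cold, where 1.44% of all genes passed, and 8 were higher without overlap, beside 37.9% of all genes. Under HFD 0 passed (0.0684% of all genes), 1 had an unadjusted p under 0.05 (limma; 14.4% of all genes), and 1 was higher and 2 lower without overlap, beside 39.9% and 5.80%. In the cold 3 had such a p, beside 24.5%. The gene that rose in the cold was Fabp3, a fatty acid binding protein of muscle and brown fat, with 131 and 159 FPKM at 22 °C and 613 and 664 at 4 °C (log2 fold change 2.14, SE 0.28, adjusted p 0.0442, limma). All 11 muscle markers were higher in both cold libraries as well, and their part in the Fabp3 difference was not tested. The Fabp3 call was lost after quantile normalization or rescaling to the autosomal sum. It was also lost without any 1 of the 4 libraries, in fits that leave 1 library in a group and can say little on a call. The Fabp3 difference itself stayed at 1.997 to 2.275 in them. Lpl, which frees fatty acids from lipoproteins, had 510 and 337 against 1352 and 1252 FPKM (adjusted p 0.0771; 0.0404 with library type as a covariate, at a log2 difference of 1.65), and Fabp4 3769 and 3472 against 7595 and 6918 (adjusted p 0.249). Acsl5, which activates fatty acids, had 21.9 and 71.5 against 103 and 199 FPKM in the cold, and 86.8 and 54.5 under NCD against 13.4 and 16.7 under HFD. Its log2 fold changes were 1.83 and −2.13, neither past threshold (adjusted p 0.161 and 0.151, limma). Without 22 °C replicate 4 the cold value was 0.99 and without 22 °C replicate 7 it was 2.66. With library type as a covariate the HFD difference passed (adjusted p 0.00394, limma) and the cold difference did not (0.118).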

How the data were processed

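RNA-Seq of BAT was done on rRNA-depleted, directional libraries read as 100-base paired ends. Per the labels and the study's methods, the authors aligned reads to GRCm38 with TopHat2 2.0.10 and quantified Ensembl 87 genes with Cufflinks, whose version is 2.2.1 in the submitters' processing notes and differs in the methods. The deposited values are FPKM, 1 per gene and library, with no replicates pooled; their unit comes from these notes, since the header names none. The table holds no counts, so the authors' count test was not repeated and depth is known only from the step that 1 fragment makes (98.1% to 98.8% of low values were whole within 0.1 fragment). Fragment numbers from this step bear on counting error only, not on the spread between libraries.

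Here log2(FPKM + 1) was fitted with limma 3.58.1 in R 4.3.3 (lmFit, eBayes with trend), 2 libraries against 2, for genes with at least 0.1 FPKM in 2 of 4 libraries, without X, Y and mitochondrial genes, with two-sided p-values adjusted by Benjamini-Hochberg over all genes. Fold changes of low genes are understated by the added 1. The code was tested on simulated data. Exact 0 values can be missing estimates, but no member was at 0. Gene spans matched GENCODE M21 and promoters came from RefSeq. Named genes were all 10 members, and genes of 4 pathway lists past threshold or without overlap at a log2 difference of at least 1. For likeness up to 3 genes per member were ranked and 1 is named. The members, lists and tests were chosen with earlier results of these data known. Alternatives were other pseudocounts, filters, scalings and covariates and leaving out each library.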

Additional observations from a re-analysis of the deposited data

How the results depend on the processing

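No paired analysis was possible because the groups compared share fewer than 2 replicate numbers; library type, of which each group holds 1 library of each kind, served as a block in the covariate fits. The number of members past threshold in the cold, 0 as reported, was 1 after median centring (Plin2) and 2 with library type as a covariate, in the 4 libraries or in all 8 (Plin2 and Plin5). It was 0 in each of the other alternatives with 2 libraries in each group. With no filter on low values or no intensity trend 0 of all genes passed in the cold, so the 0 there says nothing about the members. In the rest 56 (pseudocount 10) to 920 genes (X, Y and mitochondrial genes kept) passed. Fits without 1 library leave 1 library in a group, and their calls, here and below, say little about a gene. Under HFD and for the contrast of cold and diet the number of members past threshold was 0 in every alternative run. Under HFD 0 of all genes passed as well with pseudocount 10, no filter, X, Y and mitochondrial genes kept, quantile normalization, equal autosomal sums or no intensity trend. The 0 there says nothing about the members. In the other alternatives with 2 libraries in each group 15 to 745 genes passed under HFD and 190 to 599 for the contrast. The members' median log2 fold change in the cold, 0.49, was −0.0271 after quantile normalization and 0.0735 with the autosomal sum equalized, and from 0.34 to 0.64 without 1 library. Under HFD it was 0.16, −0.20 after median centring, and from −0.06 to 0.44 without 1 library. The 9 members without overlap in the cold (all higher) became 5 after median centring and 4 with equal autosomal sums, again all higher, and 3 higher and 3 lower after quantile normalization. The 2 under HFD (both higher) became 5 after median centring (2 higher and 3 lower) and 8 after either other rescaling (4 and 4), beside 39.9% of all genes higher and 5.80% lower as deposited, 11.2% and 28.6% after centring, 21.5% and 20.1% after quantile normalization and 33.0% and 10.98% with equal sums. Why the scalings differ was not tested. Among pathway genes past threshold, Pde4d and Fabp3 kept the call in 7 of 16 alternatives in the cold and Hcar1 in 12 of 16, and the contrast was kept in 9 of 11 for Hcar1 and 4 of 11 for Fitm1, each with its sign the same in all of them. The alternatives for the pathway genes, for the median, for the number past threshold of the contrast and for the perilipin shares were added after seeing the data. With 2 libraries a group the spread is poorly known, and a group left with 1 library was assumed to vary like the other.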
